A study of Homo sapiens with 4 samples.

Results

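The mRNAs of the aminoacyl-tRNA synthetases were followed through the DHX36 PAR-CLIP of HEK293 cells. They were chosen by symbol alone, 36 of the 26490 genes listed. No measured value was part of that rule, though earlier results of these data were known when it was set. Of these, 20 code for cytosolic enzymes and 16, whose symbols end in 2, for mitochondrial enzymes. HEK293 cells derive from human embryonic kidney. In both lines a tetracycline-inducible transgene coded for DHX36 with a FLAG/HA tag, isoform 2 of the wild-type helicase in the FH-DHX36 cells and isoform 1 with the mutation E335A in the FH-DHX36-E335A cells. Tetracycline at 500 ng per ml induced both transgenes for 15 h, while the cells were fed with 4-thiouridine. The cells were then exposed to UV light of 365 nm for 5 min, and the tagged protein was precipitated with a FLAG antibody, in 2 samples per cell line. The cells also kept their own DHX36, the transgenes were overexpressed, and isoform and mutation differed together, so their parts in any difference cannot be told apart.

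Aminoacyl-tRNA synthetases join each amino acid to its tRNA and thereby set the meaning of the genetic code. The cytosol and the mitochondria translate separately and mostly use separate nuclear-encoded enzymes, while GARS and KARS, counted here as cytosolic, each give rise to both forms. Several cytosolic enzymes are held in the multisynthetase complex together with scaffold proteins. DHX36 is a DEAH-box helicase that unwinds G-quadruplexes, 4-stranded structures that form where runs of guanine lie close together.

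PAR-CLIP marks the contact of a protein with RNA, since a crosslinked 4-thiouridine appears as a T-to-C conversion in the reads. Reads that overlap and carry such conversions form a cluster, and their number is the crosslinked read count of the gene. The deposited table gave 1 value per gene and cell line, with the replicates combined, so that no replicate spread can be computed and no difference between the cell lines or between genes was tested. The FH-DHX36-E335A PAR-CLIP held 8752127 crosslinked reads and the FH-DHX36 PAR-CLIP 2160413, a ratio of 4.05. A gene with few reads was thus easier to list with FH-DHX36-E335A. The synthetase mRNAs held 26765 reads in 264 clusters with FH-DHX36-E335A and 6614 reads in 62 clusters with FH-DHX36, which was 0.306% of all reads in each.

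Closely spaced guanine runs were searched for on the sense strand as 4 runs of GG or longer with 1 to 7 N, any base, between them, and matches were not allowed to overlap. On the canonical transcripts of GENCODE release 44, 84.7% of 18831 genes had a match in the CDS, and for the 3'UTR this share was 64.1%. Shown first are 3'UTR matches of 4 members with many crosslinked reads, read 5′ to 3′ with the runs in capitals. The 4 were picked among members that have such a match, whereas NARS, with 519 FH-DHX36-E335A reads in its 3'UTR, has none. FARSA held 147 of its 2618 FH-DHX36-E335A reads in the 3'UTR. The IARS2 match lies on GRCh37 at chr1:220321094-220321106, plus strand, exon 23. The TARS match lies at chr5:33467833-33467851, plus strand, exon 19. The YARS match, the last of 3 in that 3'UTR, lies at chr1:33241040-33241061, minus strand, exon 13. The FARSA match lies at chr19:13033391-13033413, minus strand, exon 13.
IARS2: GGtGGaGGatGGG
TARS: GGctccatGGaaaaGGaGG
YARS: GGcttGGcactGGGGGccaGGG
FARSA: GGGacagaGGactGGGtagcaGG

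With runs of at least 3 G the search matched the CDS of 6.26% of all genes and of 3 members, all of which are shown. The CARS2 match lies at chr13:111358366-111358384, minus strand, exon 1. The VARS match lies at chr6:31762781-31762809, minus strand, exon 2, and the VARS2 match at chr6:30893382-30893411, plus strand, exon 28. Capitals mark the runs of 3 or more. CARS2 held more FH-DHX36 reads than any other mitochondrial enzyme, whereas VARS and VARS2 had no cluster in either PAR-CLIP. With FH-DHX36, 15 other members had none either. The table gives no cluster positions, so a match cannot be set against a cluster and is a description of the transcript.
CARS2: GGGccttGGGcGGGctGGG
VARS: GGGGcccggtGGGctctGGGtgtGGGGGG
VARS2: GGGcaccctGGGctactgtGGGGctgtGGG

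Nearly all members had a cluster with FH-DHX36-E335A, and about as many had one with FH-DHX36 as had none. A cluster was listed for 34 of 36 members with FH-DHX36-E335A, against 34.5% of all listed genes. These were 19 of 20 cytosolic and 15 of 16 mitochondrial members. With FH-DHX36, 19 of 36 members had a cluster, against 22.4% of all genes. Here the compartments parted, with 13 of 20 cytosolic members (65.0%) and 6 of 16 mitochondrial members (37.5%). An exonic cluster, that is 1 in the CDS or either UTR, was listed for 31 members with FH-DHX36-E335A (18 cytosolic and 13 mitochondrial, against 32.2% of all genes). With FH-DHX36 it was listed for 16 members, 13 of them cytosolic and 3 mitochondrial, against 19% of all genes. The background is all listed genes, whether expressed in these cells or not. Abundance could be recovered from the table only for genes with a cluster, and a background of expressed genes was not used here.

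**Figure D1:**
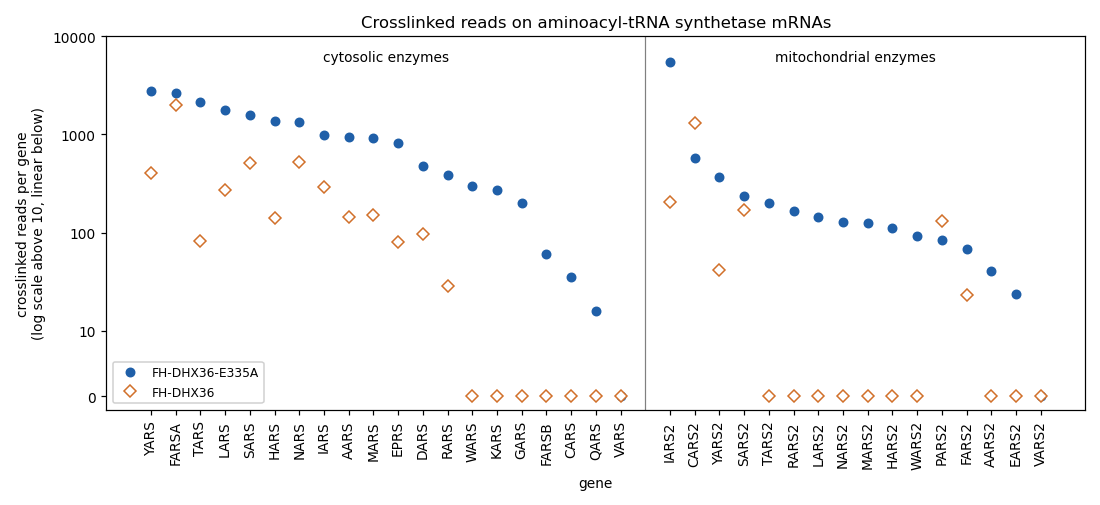
Crosslinked reads (y axis, reads per gene, log scale above 10 and linear below) for each of the 36 synthetase genes (x axis), cytosolic to the left of the line and mitochondrial to the right. Blue circles are FH-DHX36-E335A and open orange diamonds FH-DHX36, each 1 deposited value; CARS2 and PARS2 are the members whose diamond lies above the circle, and VARS and VARS2 are at 0 in both.

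Among the cytosolic enzymes YARS, which charges tyrosine, held the most FH-DHX36-E335A reads, with 2753 in 15 clusters and 408 reads in 9 clusters with FH-DHX36. FARSA, the catalytic subunit of the phenylalanine enzyme, held 2618 in 10 clusters and 1991 in 9 clusters, the most FH-DHX36 reads of any member. Of those 1991 reads, 1409 lay in 1 cluster outside the UTRs, the CDS and introns. TARS, for threonine, held 2123 in 20 clusters and 83 in 3 clusters. These 3 mRNAs had similar read counts with FH-DHX36-E335A but differed widely with FH-DHX36. LARS, for leucine, held 1762 reads in 21 clusters, the most clusters of any member, and 271 reads in 3 clusters with FH-DHX36. SARS, for serine, held 1594 in 11 clusters and 511 in 5 clusters. LARS also had the highest NXPM of the cytosolic enzymes with FH-DHX36-E335A, at 21.6, NXPM being the authors' score of reads per total crosslinked reads over mRNA abundance.

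A second tier of cytosolic mRNAs held 387 to 1373 FH-DHX36-E335A reads and was bound in both PAR-CLIPs. HARS (histidine) held 1373 FH-DHX36-E335A reads and 141 FH-DHX36 reads, and NARS (asparagine) held 1326 and 522. IARS (isoleucine) held 976 and 290, AARS (alanine) 952 and 145, and MARS (methionine) 930 and 153. EPRS, which charges both glutamate and proline, held 818 and 80. DARS (aspartate) held 473 and 98, and RARS (arginine) 387 and 29. All 13 cytosolic mRNAs with an FH-DHX36 cluster had at least 387 FH-DHX36-E335A reads, and the 6 with a cluster in FH-DHX36-E335A alone had at most 300.

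Those 6 were WARS (tryptophan) with 300 reads, KARS (lysine) with 273, GARS (glycine) with 199, FARSB, the other subunit of the phenylalanine enzyme, with 61, CARS (cysteine) with 35 and QARS (glutamine) with 16. The subunits of the phenylalanine enzyme therefore stood far apart in total reads, FARSA at 2618 and FARSB at 61. Of these, 439 and 46 were exonic. QARS was the lowest of the bound members although its recovered abundance of 52.1 was second among members to that of FARSA, and its NXPM was 0.0351. With 16 reads a cluster lies near the lowest counts listed for any bound gene, 5 with FH-DHX36-E335A.

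Among the mitochondrial enzymes IARS2, for isoleucine, stood apart with 5426 FH-DHX36-E335A reads in 17 clusters, the most reads of any member and rank 259 of all genes, and 204 reads in 2 clusters with FH-DHX36. CARS2, for cysteine, came next with 574 reads in 7 clusters and had 1322 reads in 1 cluster with FH-DHX36. YARS2 (tyrosine) held 371 reads in 7 clusters and 42 reads in 1 cluster. SARS2 (serine) held 236 in 3 clusters and 169 in 1 cluster. TARS2 (threonine) held 201 in 3 clusters and had no cluster with FH-DHX36. Without IARS2, no mitochondrial mRNA exceeded 574 FH-DHX36-E335A reads, a count that 11 cytosolic mRNAs exceeded.

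Apart from TARS2, 8 mitochondrial mRNAs had a cluster with FH-DHX36-E335A alone. Their reads were 168 on RARS2 (arginine), 144 on LARS2 (leucine), 129 on NARS2 (asparagine), 125 on MARS2 (methionine), 111 on HARS2 (histidine), 93 on WARS2 (tryptophan), 41 on AARS2 (alanine) and 24 on EARS2 (glutamate). PARS2, for proline, held 85 FH-DHX36-E335A reads and 132 FH-DHX36 reads, and FARS2, for phenylalanine, 68 and 23. PARS2 and CARS2 were thus the members with more FH-DHX36 reads even before scaling to the larger FH-DHX36-E335A total. Over both compartments the 15 members with an FH-DHX36-E335A cluster alone held 16 to 300 reads, with a median of 125, against 68 to 5426 and a median of 952 for the 19 bound in both.

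The typical cytosolic mRNA held more crosslinked reads, clusters and NXPM than the typical mitochondrial one. With FH-DHX36-E335A the median was 874 reads for the 20 cytosolic members (range 0 to 2753) and 127 for the 16 mitochondrial ones (range 0 to 5426). The median number of clusters was 10 against 3, and the median NXPM 3.31 against 1.95. The difference was thus smaller after division by abundance, and the ranges overlapped in each measure. With FH-DHX36 the medians were 90.5 reads, 2.5 clusters and an NXPM of 2.36 for the cytosolic members, while all 3 medians were 0 for the mitochondrial ones. Among bound members alone, 13 cytosolic and 6 mitochondrial, the FH-DHX36 medians were 153 and 150.5 reads, 3 clusters and 1, and an NXPM of 4.53 and 3.68. For the median bound gene of the table the values were 326 reads, 5 clusters and 5.66 for NXPM with FH-DHX36-E335A. With FH-DHX36 they were 121 reads, 2 clusters and 7.84.

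The 8 enzymes of the multisynthetase complex (DARS, EPRS, IARS, KARS, LARS, MARS, QARS and RARS) were all bound with FH-DHX36-E335A, at 16 to 1762 reads with a median of 645.5 reads and 11 clusters. The other 12 cytosolic enzymes, of which 11 were bound, had a median of 1139 reads and 9 clusters. With FH-DHX36-E335A the complex enzymes had more CDS than 3'UTR reads in 8 of 8 cases and the other cytosolic enzymes in 7 of 10, against 30.9% of all genes with an exonic cluster. These counts disregard region length, and per nt the 3'UTR was denser than the CDS on EPRS, KARS and LARS of the complex. The 3'UTR held 17.8% of the summed exonic reads of the complex enzymes and 42.6% of those of the other cytosolic enzymes, where TARS and YARS held 966 and 937 of 2847 3'UTR reads. The values were closer as medians over members (15.7% and 31.7%) and by clusters (16.9% and 26.3%). With FH-DHX36, 6 of the 8 were bound and all 780 of their exonic reads lay in the CDS.

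**Figure D2:**
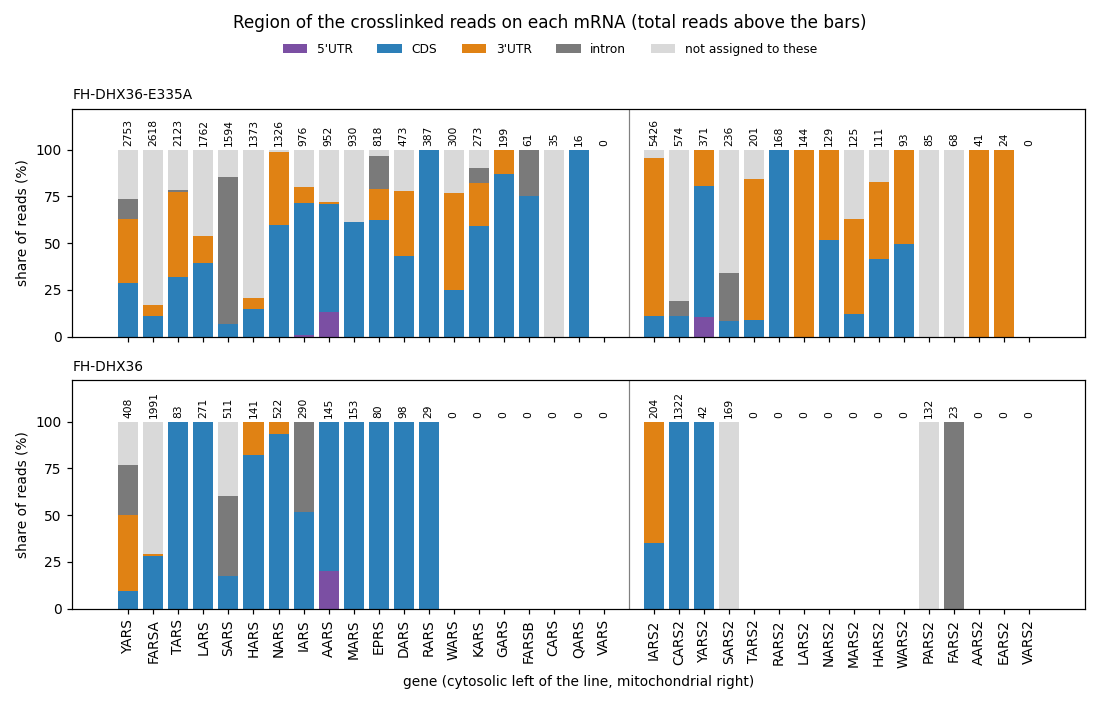
Share of each gene's crosslinked reads (y axis, percent) in the 5'UTR (purple), CDS (blue), 3'UTR (orange), introns (dark grey) and outside these (light grey), for FH-DHX36-E335A above and FH-DHX36 below, with the read count over each bar; genes without reads have no bar. CDS dominates many cytosolic bars, SARS stands out by its intron share of 78.4%, and 84.7% of the IARS2 reads lie in the 3'UTR with FH-DHX36-E335A.

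Along the transcript, CDS reads outnumbered 3'UTR reads on most cytosolic mRNAs, as counts without regard to region length. With FH-DHX36-E335A this was so for 15 of 18 cytosolic and 5 of 13 mitochondrial members with an exonic cluster, together 20 of 31, against 30.9% of all such genes. With FH-DHX36 it was so for 12 of 13 cytosolic and 2 of 3 mitochondrial members, together 14 of 16, against 41.2% of all such genes. The exceptions among the cytosolic mRNAs with FH-DHX36-E335A were YARS (793 CDS and 937 3'UTR reads), TARS (681 and 966) and WARS (75 and 156). Divided by region length, FH-DHX36-E335A reads were denser in the 3'UTR on EPRS, FARSA, GARS, HARS, KARS, LARS, NARS, TARS, WARS and YARS. They were denser in the CDS on AARS, DARS, FARSB, IARS, MARS, QARS, RARS and SARS. The larger CDS counts are therefore not a preference for the CDS per nt on all of these mRNAs.

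In summed FH-DHX36-E335A reads, the 3'UTR held 33.4% of the exonic reads on cytosolic mRNAs (95% Wilson interval 32.5 to 34.3) and 79.6% on mitochondrial ones (78.6 to 80.5), against 71.9% over all genes. The mitochondrial value rested on IARS2 and was 46.7% without it. The median over members, in which each mRNA counts once, was 24.0% for cytosolic and 50.5% for mitochondrial mRNAs, against 73.6% for all genes. By this measure both sets lay below the typical gene, the cytosolic one further. With FH-DHX36 the summed share was 9.89% for cytosolic and 8.48% for mitochondrial mRNAs, against 51.4% over all genes. CARS2 set the mitochondrial value, which was 54.1% without it and then rested on IARS2 and YARS2. These Wilson intervals treat each read as an independent draw and leave out the spread between samples and between members. Reads of 1 cluster are not independent molecules, so the intervals are likely too narrow even for counting error.

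The 5'UTR was little covered. Reads there were listed for AARS (124 FH-DHX36-E335A reads and 29 FH-DHX36 reads), YARS2 (39 with FH-DHX36-E335A) and IARS (11 with FH-DHX36-E335A). These summed to 0.712% of the cytosolic and 0.500% of the mitochondrial FH-DHX36-E335A reads, against 3.86% for all genes. The median 5'UTR measured 84.5 nt for cytosolic and 34.5 nt for mitochondrial mRNAs, against 143 nt for bound genes. The part of 5'UTR length in these shares was not tested.

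Introns held 9.22% of the cytosolic FH-DHX36-E335A reads, against 1.37% for the mitochondrial mRNAs and 4.48% for all genes. SARS alone made up most of it. Of its 1594 reads 1249 (78.4%) lay in introns, in 8 of 11 clusters, and without SARS the cytosolic share was 2.88%. With FH-DHX36, SARS had 219 intron reads of 511, IARS 141 of 290 and YARS 109 of 408, and all 23 reads of FARS2 were intronic. YARS was also intronic with FH-DHX36-E335A (299 of 2753 reads), whereas IARS had no intron read there.

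A large part of the reads on cytosolic mRNAs was assigned to none of the 4 regions, 34.7% with FH-DHX36-E335A against 14.1% on mitochondrial mRNAs and 21.4% over all genes. FARSA contributed 2179 such reads of 2618, HARS 1086 of 1373, LARS 809 of 1762 and YARS 724 of 2753. Without FARSA the cytosolic share was 27.0%. On CARS, PARS2 and FARS2 all FH-DHX36-E335A reads were of this kind, and so were all FH-DHX36 reads on PARS2 and SARS2. The region counts of these genes therefore leave the place of their clusters unknown. HARS overlaps HARS2, head to head, and WDR55 on the opposite strand, and DND1 on the same strand. Where its unassigned reads belong was not tested.

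IARS2 carried the densest 3'UTR signal. Of its 5426 FH-DHX36-E335A reads 4594 lay in the 3'UTR, in 3 of its 17 clusters, and 604 in the CDS, in 11 clusters. The 3'UTR of the canonical transcript measures 406 nt, so that it held 11.3 reads per nt, rank 19 of 18562 genes with a 3'UTR. The median was 0.129 reads per nt over the 7124 genes with any 3'UTR read. TARS with 2.56 and YARS with 1.26 reads per nt followed among the members. The IARS2 3'UTR has 1 match to the 4 runs of G, shown above, at position 117. With FH-DHX36 the same mRNA had 133 reads in the 3'UTR and 71 CDS reads, in 1 cluster each, and its NXPM was 4.56 against 29.9 with FH-DHX36-E335A.

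CARS2 showed the opposite arrangement. With FH-DHX36 its 1322 reads lay in 1 CDS cluster, which placed it at rank 330 of all genes, with an NXPM of 22.6. With FH-DHX36-E335A 62 of its 574 reads lay in the CDS, in 3 clusters, 46 in introns and 466 in none of the regions. The CDS reads were thus fewer with FH-DHX36-E335A although that PAR-CLIP was 4.05 times deeper. A single cluster of this size decides the values of CARS2 and, with FH-DHX36, of the mitochondrial sum, and how it was distributed over the 2 samples is unknown.

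**Figure D3:**
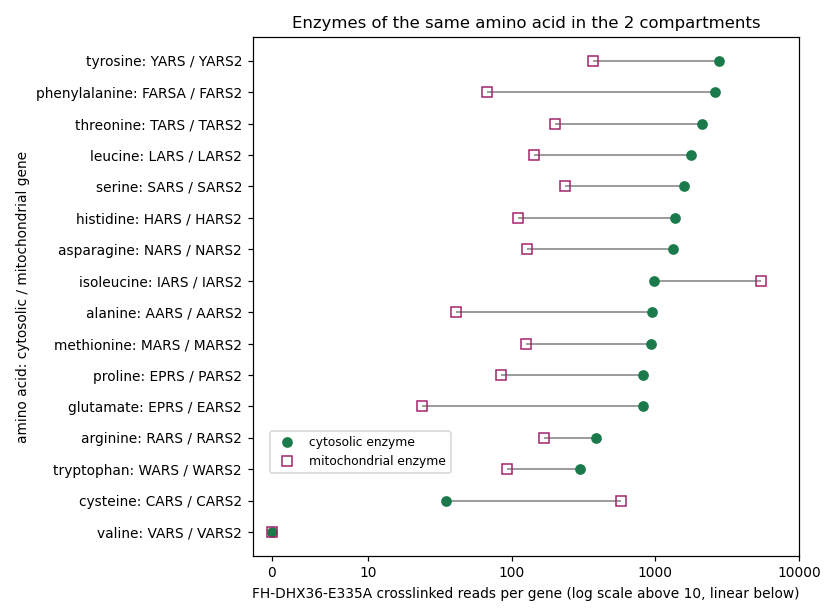
FH-DHX36-E335A crosslinked reads (x axis, reads per gene, log scale above 10 and linear below) for the 16 pairs of enzymes that charge the same amino acid (y axis), with the cytosolic enzyme as a filled circle and the mitochondrial one as an open square. The circle lies to the right in 13 pairs, the square in those of isoleucine and cysteine, and both valine enzymes are at 0.

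Enzymes for the same amino acid could be set against each other in 16 pairs, in which EPRS serves for both glutamate and proline and FARSA stands for the phenylalanine enzyme. With FH-DHX36-E335A the cytosolic mRNA held more reads in 13 pairs, the mitochondrial one in 2, and 1 pair had none. FARSA held 38.5 times the reads of FARS2, and EPRS 34.1 times those of EARS2. In the other direction CARS2 held 16.4 times the reads of CARS, and IARS2 5.56 times those of IARS. NXPM was higher on the cytosolic mRNA in 12 pairs and on the mitochondrial one in 3, since MARS2 passed MARS (3.05 against 2.77). With FH-DHX36 the cytosolic mRNA held more reads in 12 pairs, CARS2 and PARS2 exceeded CARS and EPRS, and the pairs of tryptophan and valine had no reads. The phenylalanine pair turned with the subunit used, since FARSB held 61 and 0 reads against 68 and 23 on FARS2. With FARSB in place of FARSA the cytosolic mRNA held more reads in 12 pairs and the mitochondrial one in 3 with FH-DHX36-E335A, and in 11 and 3 with FH-DHX36. Of the canonical transcripts, HARS2 shared 7 windows of 20 bases with HARS, VARS2 shared 3 with VARS, and the other pairs shared none. Such windows can overlap and need not be separate stretches. How the authors' alignment placed reads between the members of a pair was not tested.

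**Figure D4:**
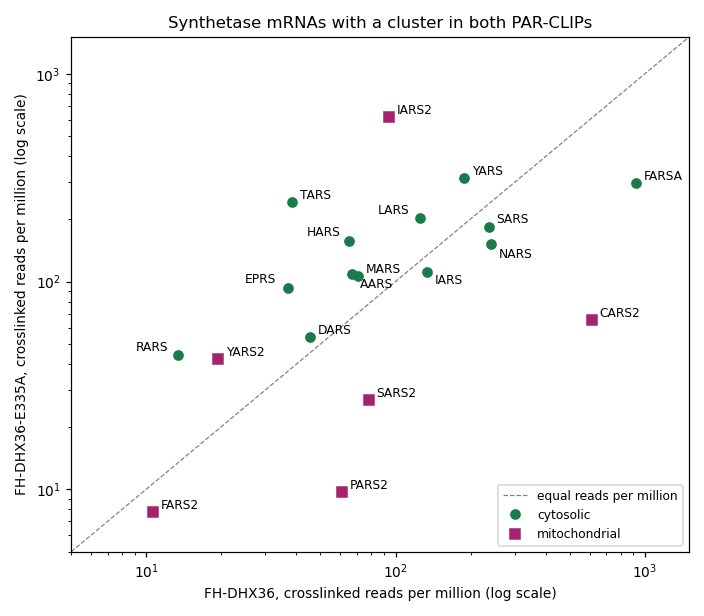
Crosslinked reads scaled to a total of 1000000 (RPM) with FH-DHX36 (x axis, log scale) and FH-DHX36-E335A (y axis, log scale) for the 19 synthetase mRNAs with a cluster in both, 13 cytosolic (circles) and 6 mitochondrial (squares). The dashed line marks equal values; IARS2 and TARS lie farthest above it and CARS2 and PARS2 farthest below.

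Scaled to a total of 1000000 crosslinked reads per PAR-CLIP (RPM), 11 of the 19 mRNAs bound in both PAR-CLIPs had more FH-DHX36-E335A reads and 8 more FH-DHX36 reads, against 53.4% of all 5669 genes bound in both that had more with FH-DHX36-E335A. The ratio of FH-DHX36-E335A to FH-DHX36 had a median of 1.5 over the members and 1.09 over all genes, whose middle range (quartiles) ran from 0.503 to 2.25. IARS2 had 620 against 94.4 RPM, a ratio of 6.57, with a 95% counting interval of 5.71 to 7.59. TARS followed with 243 against 38.4 and a ratio of 6.31 (5.07 to 7.96), and RARS with 44.2 against 13.4 and 3.29 (2.26 to 4.99). CARS2 had 65.6 against 612 RPM, 9.33 times more with FH-DHX36 (8.45 to 10.3), PARS2 6.29 times more (4.75 to 8.36) and FARSA 3.08 times more (2.91 to 3.27). The counting intervals leave out the spread between samples, which could be larger.

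The median ratio was 1.60 for the 13 cytosolic mRNAs, of which 9 had more reads with FH-DHX36-E335A, and 0.537 for the 6 mitochondrial ones, of which 2 did. This order turned with exonic reads alone, where the median was 0.938 for 13 cytosolic and 2.20 for 3 mitochondrial mRNAs, against 1.05 over 4790 genes. The compartments therefore had no stable direction in this ratio. The members at the ends, IARS2, TARS, CARS2 and PARS2, lay at percentiles 95.6, 95.2, 3.07 and 5.59 of all genes bound in both. They were picked as the ends, and many genes lie beyond the quartiles by definition, so their place is not a trait of the members.

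**Figure D5:**
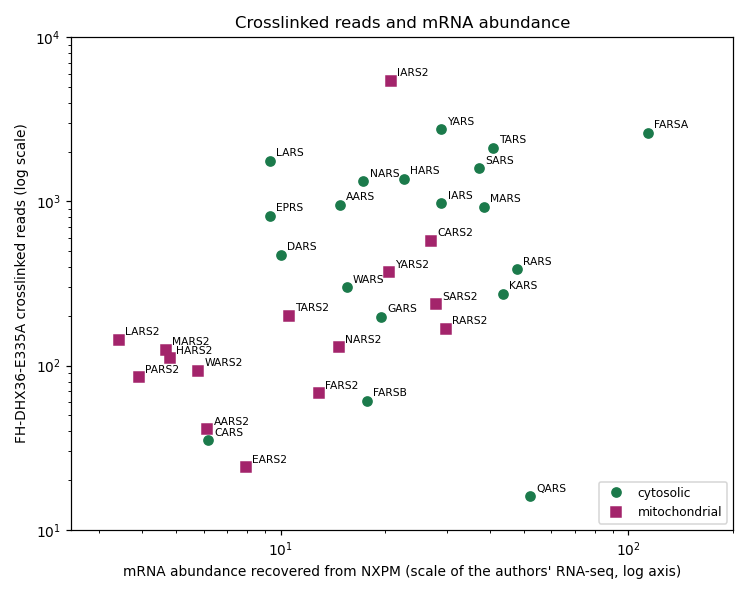
FH-DHX36-E335A crosslinked reads (y axis, log scale) against the mRNA abundance recovered from NXPM (x axis, scale of the authors' RNA-seq, log axis) for the 34 synthetase mRNAs with a cluster, 19 cytosolic (circles) and 15 mitochondrial (squares). IARS2 lies highest at an abundance of 20.7, QARS lowest at 52.1 and FARSA farthest to the right at 114.

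mRNA abundance differed between the compartments too. The abundance that the authors divided by, recovered from reads and NXPM, had a median of 22.7 over 19 cytosolic and 10.6 over 15 mitochondrial mRNAs, and 5.89 over all genes bound with FH-DHX36-E335A. It ranged from 3.43 for LARS2 to 114 for FARSA, and was higher on the cytosolic side in 14 of 15 pairs, CARS2 at 27.1 exceeding CARS at 6.19. Across the 34 bound members the rank correlation of FH-DHX36-E335A reads with abundance was 0.485, with 0.147 among the cytosolic and 0.586 among the mitochondrial mRNAs, and 0.317 over the 9131 bound genes. These points share the PAR-CLIP and its depth, and genes are not replicates. LARS (abundance 9.33) and QARS (52.1) show how loose the relation was, with 1762 and 16 reads.

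VARS and VARS2, the cytosolic and the mitochondrial valine enzymes, were the members with 0 reads in both PAR-CLIPs. VARS lies on GRCh37 at chr6:31745295-31763529 and VARS2 at chr6:30881982-30894236, both in the major histocompatibility complex. Of the 142 genes annotated between 29 and 33 Mb of chromosome 6, 4 had a cluster with FH-DHX36-E335A (2.82%, 95% Wilson interval 1.10 to 7.02), with at most 71 reads, and 0 of 142 with FH-DHX36 (upper bound of the interval 2.63%). On the rest of chromosome 6 the shares were 55.8% of 846 genes and 34.3%. These shares count only genes matched to a protein-coding transcript, unlike those of all listed genes given above. AARS2, FARS2 and RARS2, on chromosome 6 outside this window, each had a cluster with FH-DHX36-E335A. The zeros of the valine enzymes thus came with those of nearly every gene around them, and whether they reflect binding was not tested. The window was chosen after these zeros were seen. The hg19 assembly and the annotation used by the authors carry alternative haplotypes of this region, and how reads in it were handled is not given in the sources used here.

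Transcripts of the compartments were alike in total length, with medians of 2704.5 nt for cytosolic and 2619.5 nt for mitochondrial mRNAs, and shorter than the 3572 nt of the median bound gene. The cytosolic CDS was longer (median 2077.5 against 1633.5 nt, and 1392 nt for bound genes) and the 3'UTR shorter (323 against 681 nt, and 1533 nt for bound genes). Reads per kb of transcript still had medians of 200 for cytosolic and 43.1 for mitochondrial mRNAs with FH-DHX36-E335A. The 3'UTRs were thus short in both sets. As a median over members the 3'UTR share of reads was also below that of all genes in both, but in summed FH-DHX36-E335A reads the mitochondrial share of 79.6% was above the 71.9% of all genes. The part of length in these shares was not tested. MARS, with a 3'UTR of 71 nt, QARS with 97 nt and RARS with 111 nt had no 3'UTR reads, while FARSB had none on 4972 nt.

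Each set had 155 matches to the 4 runs of G. A CDS match was found in 20 of 20 cytosolic and 14 of 16 mitochondrial mRNAs, and a 3'UTR match in 7 and 8. Per kb the CDS held 2.74 matches in cytosolic, 3.52 in mitochondrial and 2.90 in all transcripts, and the 3'UTR 1.09, 2.20 and 1.84. Matches and reads were not ordered alike along the members. The rank correlation of FH-DHX36-E335A reads with matches was -0.18 for the CDS and 0.333 for the 3'UTR over 36 members. That of 3'UTR reads with 3'UTR length was 0.421. The 36 include VARS and VARS2, with 23 and 18 CDS matches and 0 reads each. Whether those zeros reflect binding was not tested, and the correlations were not computed without them. AARS2 had 12 matches in its 3'UTR and 41 reads there, NARS had none and 519 reads, and DARS had none and 164 reads. RARS2 and WARS2 had no CDS match but 168 and 46 CDS reads.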

How the data were processed

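Per the paper's methods, reads of 2 samples per cell line were mapped to hg19, PARalyzer, run with the defaults of PARpipe, called the clusters, and GENCODE release 19 annotated them. The submitters' processing notes name bcl2fastq 2.17.1. The authors deposited crosslinked read counts per gene and region without normalization, and numbers of clusters in the same regions. NXPM was deposited as a score, the crosslinked reads scaled to their total and divided by mRNA abundance. The regions are the UTRs, the CDS and introns, and reads assigned to none were taken here as the total less these. Every value stands for both samples of a cell line, and 0 columns belonged to other samples. The table holds no expression values of their own, so the cell line was not checked against markers.

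The members, gene lists and named genes were chosen with earlier results of these data known. Named in full were the 5 members of each compartment with the most FH-DHX36-E335A reads, those without a cluster or with one in 1 PAR-CLIP alone, those with most reads in introns, and the pairs with the largest difference in each direction. Of the list of partner genes, the 3 with the most FH-DHX36-E335A reads were named by rule.

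Abundance was recovered as RPM over NXPM, less 0.001. This step was run on data simulated with the same formula, which checks the arithmetic alone and not the form of the authors' score. Values from both PAR-CLIPs were the same for the 19 members bound in both. Lengths, coordinates and sequences came from the canonical transcripts of GENCODE release 44 on GRCh37, the build of hg19, with symbols matched through older names (36 of 36 members). Of 310 matches to the guanine runs, 266 lay in 1 exon and equalled the genome there. Reads within 1 transcript region were not placed at finer resolution. Genes listed on overlapping strands (HARS with HARS2 among the members) may share clusters if strand was not used, which is not given in the sources used here. Genes that overlap on the same strand, such as HARS with DND1 and IARS with SNORA84, may share clusters in either case. Intervals are 95% Wilson intervals for shares and exact binomial ones for ratios. The planned edgeR test was not run because the table has no replicate columns, and no p-value was computed. Python 3.11.15, pandas 2.3.3, numpy 2.4.6, scipy 1.17.1 and matplotlib 3.10.9 were used.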

Additional observations from a re-analysis of the deposited data

How the results depend on the processing

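Of 72 alternative values for 30 results, 40 stayed within the stated bounds, 30 moved further and 2 changed direction. The bounds were 1.5 times for counts, medians and ratios and the Wilson interval for shares. Some of the 40 could not have moved. Leaving out VARS and VARS2, which had no cluster, could not change any count of bound members. Neither could leaving out GARS and KARS with FH-DHX36, where they had no cluster. The median ratio of FH-DHX36-E335A to FH-DHX36 turned with exonic reads, from 1.60 to 0.938 for cytosolic and from 0.537 to 2.20 for mitochondrial mRNAs, and was 0.252 for the latter with at least 50 FH-DHX36 reads. Asking for at least 2 clusters left 1 mitochondrial mRNA bound with FH-DHX36 in place of 6, and 1 in place of 3 by exonic clusters. The difference of the medians, cytosolic minus mitochondrial, was 747 reads with FH-DHX36-E335A, 461 by means and 292.5 in exonic reads. With FH-DHX36 it was 90.5 reads, and 2.5 among bound members. For NXPM it was 1.35 with FH-DHX36-E335A and 2.41 without GARS and KARS, and 2.36 with FH-DHX36, 0.857 among bound members and 0.646 by means. The 3'UTR share of exonic reads with FH-DHX36-E335A was 21.6% by clusters and 24.0% as the median for cytosolic mRNAs, and 35.4%, 50.5% and, without IARS2, 46.7% for mitochondrial ones. With FH-DHX36 it was 15.2% and 0% for cytosolic mRNAs, and 25% by clusters, 0% as the median and without IARS2, and 54.1% without CARS2 for mitochondrial ones. The intron share by clusters was 6.97% (cytosolic) and 3.17% (mitochondrial) with FH-DHX36-E335A, and 9.09% and 14.3% with FH-DHX36. Without SARS the cytosolic value was 2.88% and 5.94%. Runs of at least 3 G gave 1 cytosolic and 2 mitochondrial matches, and spacers of up to 12 bases 295 and 291, in place of 155 each. The causes of these shifts were not tested. Leaving out IARS2, CARS2 or SARS, or VARS with VARS2, and taking FARSB for FARSA were chosen after seeing the data. No paired analysis was possible because the table has no replicate columns, and no replicate could be left out. The FH-DHX36 values rest on fewer reads, and no setting matched the depths. Widening the window on chromosome 6 to 28 to 34 Mb gave 14 of 187 genes (7.49%) with an FH-DHX36-E335A cluster.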

Other observations

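Genes that work beside the synthetases gave a mixed picture. Of a list of 20 symbols, 19 were found in the table, 16 of them with an FH-DHX36-E335A cluster (against 34.5% of all genes) and 7 with an FH-DHX36 cluster (against 22.4%). Among genes matched to a protein-coding transcript outside 29 to 33 Mb of chromosome 6 these shares were 48.5% and 31.5%. Their medians were 199 and 0 reads. EEF1A1, which delivers charged tRNA to the ribosome, held 4472 FH-DHX36-E335A reads, all in the 3'UTR, and had an NXPM of 0.189. AIMP1, a scaffold of the multisynthetase complex, held 1419 reads in 11 clusters, 900 of them in the 3'UTR, at an NXPM of 27.5. XPOT, which exports tRNA from the nucleus, held 805 FH-DHX36-E335A reads in 19 clusters and 15 FH-DHX36 reads in 1 cluster.

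The other scaffolds of the complex, AIMP2 with 471 and EEF1E1 with 668 FH-DHX36-E335A reads, had no 3'UTR reads and no cluster with FH-DHX36. Only 139 and 187 of these reads lay in the CDS, so that most lay outside both regions. Among mitochondrial partners TUFM, which delivers charged tRNA in the organelle, held 639 and 422 reads, and GATC, a subunit of the amidotransferase that makes mitochondrial glutamine tRNA, 753 and 405. TSFM, the exchange factor for TUFM, held 419 and 0 reads. AARSD1, SEPSECS and GATB had no cluster in either PAR-CLIP. GATB, GATC, TUFM, TSFM, AIMP2, EEF1E1, AARSD1 and SEPSECS were chosen for naming after their values were seen.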
